A study of Mus musculus with 12 samples.

Results

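The genes described here make, sense or respond to oxysterols, or export cholesterol: Ch25h, Cyp7b1, Cyp27a1, Gpr183, Nr1h2, Nr1h3, Abca1, Abcg1, Mylip and Apoe. These 10 genes were taken by symbol from the 55335 genes quantified by RNA-seq in 12 libraries of mouse bone marrow-derived dendritic cells (BMDCs), and all 10 were found in every library. Bone marrow of adult C57BL/6 mice of both sexes was grown with GM-CSF for 6 days, which yields dendritic cells of monocyte origin. All mice carried CreER, a tamoxifen-dependent Cre recombinase expressed from the Rosa26 locus and thus in all cell types. WT cells came from CreER mice and KO cells from CreER;CTCF fl/fl mice, in which 4-OH tamoxifen on the first culture day removes the floxed Ctcf alleles. WTL and KOL were the same cells given LPS, a bacterial cell wall component that triggers Toll-like receptor 4, at 100 ng/ml for 3 h, and there were 3 libraries in each of the 4 groups. Whether WT cultures also received 4-OH tamoxifen is not stated clearly in the sources used here, and if they did not, the agent and the loss of Ctcf cannot be told apart. In bulk samples, fewer cells of a type and less RNA per cell cannot be told apart.

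Library totals ranged from 12769773 to 16586334 expected counts. Ctcf, the targeted gene, lay between 975 and 1051 normalized counts in WT, 745 and 886 in WTL, 516 and 570 in KO, and 526 and 563.5 in KOL, so its mRNA was at 54.7% of WT in KO and at 66.2% of WTL in KOL. The rows count the whole gene, including any part outside the deleted exons. WTL replicate 2 had 4.65% of its counts in rRNA genes against 0.134% to 0.636% elsewhere, and without it 6 genes of the set were called in WTL against WT and 6 in KOL against WTL, the same counts as with it. All 7 dendritic cell markers were detected, and they summed to between 113700 and 119900 normalized counts in WT, 151800 and 204100 in WTL, 94420 and 96330 in KO, and 166400 and 223800 in KOL. Of these 7, Itgax (CD11c) was higher in KO than in WT (log2 fold change 0.83) and 3 were lower. Over all genes tested, 22.2% were higher and 22.4% lower. The 3 included H2-Aa, an MHC class II gene (-1.15), and Flt3, a growth factor receptor gene, at 24.8% of WT. The summed markers of mast cells and basophils, of B cells, of T and NK cells and of erythroid cells reached at most 51.4 normalized counts in any library. The 12 macrophage and monocyte markers summed to between 23170 and 25230 normalized counts in WT, 23370 and 26490 in WTL, 31370 and 32750 in KO, and 22400 and 27230 in KOL, with Vsig4 at or under 3 counts in all libraries. The 8 granulocyte markers summed to between 1164 and 1283 in WT and between 584.5 and 668.2 in KO. All 6 that were tested were lower in KO than in WT, where 22.4% of all genes tested were. The part of these marker shifts in the results below was not tested.

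Oxysterols are oxidised forms of cholesterol that act as signals. CH25H, an enzyme of the endoplasmic reticulum that type I interferon and LPS are known to induce in macrophages and dendritic cells, makes 25-hydroxycholesterol. CYP7B1 then adds a further hydroxyl group, giving the ligand that guides dendritic cells, B cells and T cells through the receptor GPR183 (EBI2). Oxysterols, including the 27-hydroxycholesterol made by CYP27A1, also bind the nuclear receptors LXRα (Nr1h3) and LXRβ (Nr1h2). These pair with RXR and drive genes of cholesterol export such as Abca1, Abcg1 and Apoe, and also Mylip, whose product limits lipoprotein uptake.

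LPS raised the oxysterol-making enzyme Ch25h and the receptor Gpr183 in both genotypes. It lowered the efflux transporter Abcg1, the ubiquitin ligase Mylip and the sterol hydroxylase Cyp27a1 in both. In CTCF-deficient cells Ch25h was lower than in WT with and without LPS, whereas Mylip was higher with and without LPS. Apoe was also higher in both conditions, but its difference without LPS did not pass the test without certain single libraries or on the TPM scale. Gpr183 was lower in KO than in WT without LPS and higher with it. Values are rounded expected counts scaled to a common library size, called normalized counts, and folds and adjusted p-values are from one edgeR quasi-likelihood fit over 14008 genes, with a gene called at an adjusted p under 0.05. Of the 10 genes, 9 were expressed highly enough to be tested, all but Cyp7b1.

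**Figure D1:**
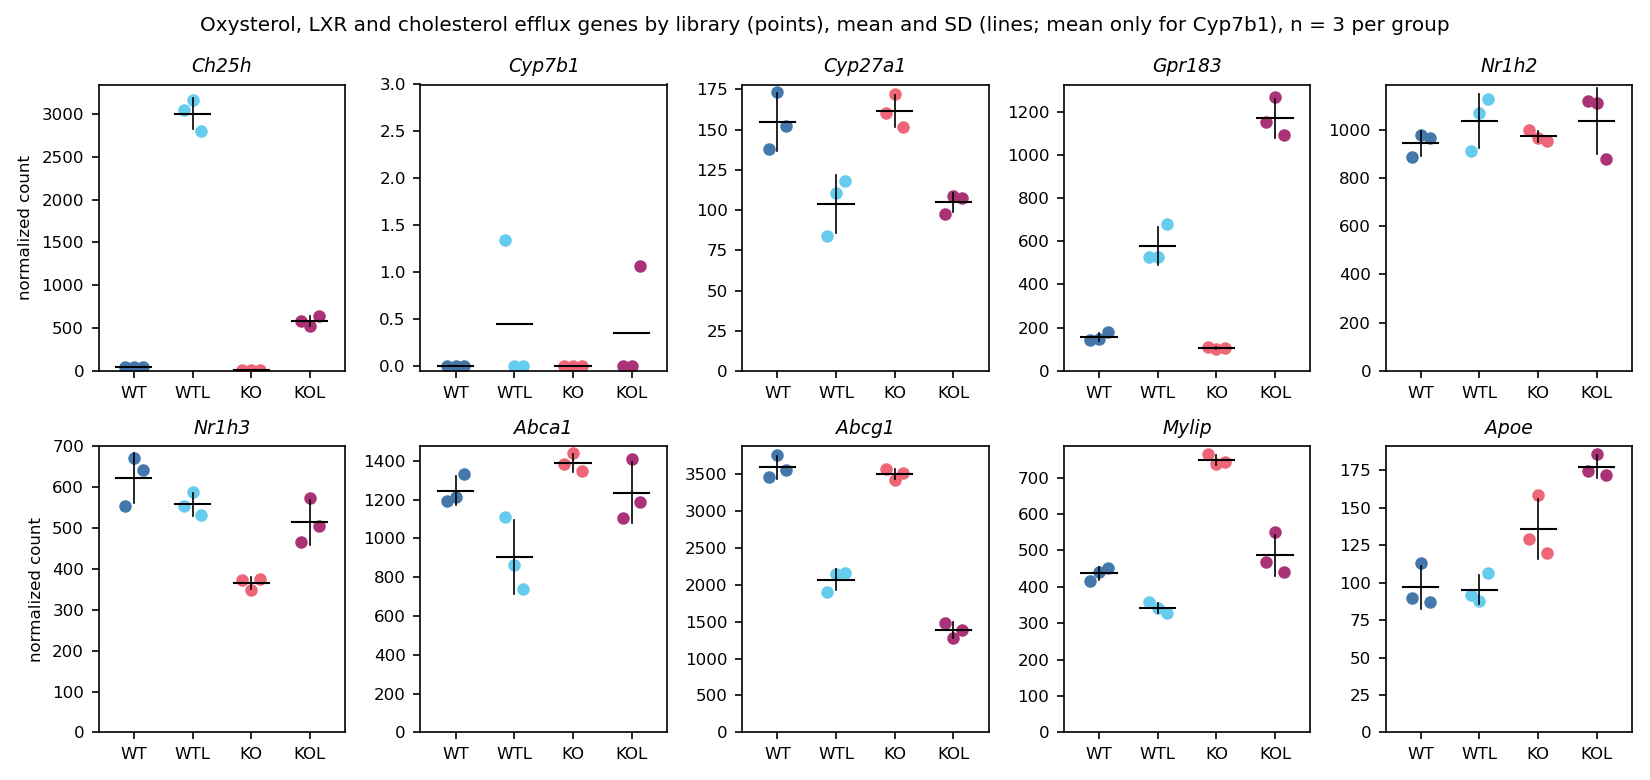
Normalized counts (vertical axes, each from about 0) of the 10 genes in every library of WT, WTL, KO and KOL. Points are libraries, horizontal lines group means and vertical lines SDs (n = 3); Ch25h in WTL lies between 2803 and 3156, Gpr183 is highest in KOL, and Cyp7b1 has a single count in each of 2 libraries.

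In WTL against WT, 2 of the 9 genes tested rose and 4 fell, where 30.0% of all genes tested rose and 30.2% fell. In KOL against KO, 4 rose and 3 fell, against 33.6% and 33.9% of all genes. In KO against WT, 2 rose and 3 fell, against 22.2% and 22.4% of all genes. In KOL against WTL, 4 rose and 2 fell, against 21.4% and 23.3% of all genes. The LPS response itself differed between genotypes for 3 of the 9, Gpr183 and Nr1h3 with a more positive response in CTCF-deficient cells and Abcg1 with a more negative one, against 8.7% and 8.75% of all genes. With this many genes called in the whole table, the counts alone do not set the 9 genes apart, and their direction, size and role are given gene by gene. The median log2 fold change of the 9 was -0.16 in WTL against WT, 0.09 in KOL against KO, 0.04 in KO against WT and 0.00 in KOL against WTL, beside -0.02, -0.02, -0.01 and -0.03 over all genes tested.

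**Figure D2:**
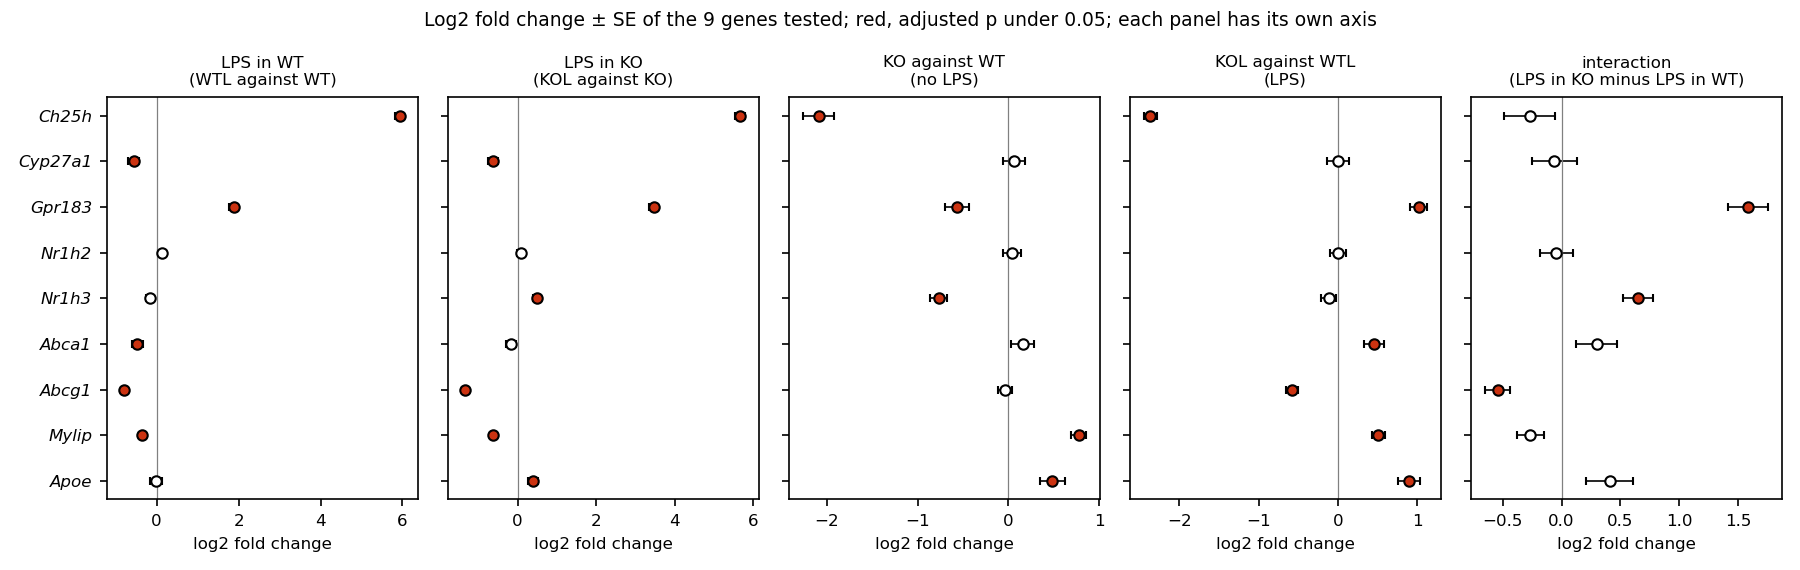
Log2 fold change (horizontal axes, a separate scale in each panel) with its SE for the 9 genes tested, in the 4 comparisons and in the interaction, which is the LPS response in KO minus that in WT. Filled points passed an adjusted p under 0.05: Ch25h moved most with LPS, by 5.93 in WT and 5.66 in KO, and Gpr183 had the largest interaction of the 9, 1.59.

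Ch25h encodes cholesterol 25-hydroxylase and lies on the minus strand of mm10 chromosome 19, from 34473778 to 34475164. Its normalized counts were 47.8, 51.2 and 48.4 in WT and 3049, 3156 and 2803 in WTL. They were 11.7, 12.5 and 10.2 in KO and 588, 526.5 and 635 in KOL. No groups overlapped, and the order was WTL, KOL, WT and KO. LPS raised Ch25h 60.9-fold in WT (log2 fold change 5.93, SE 0.10, adjusted p = 8.48e-15) and 50.5-fold in KO (5.66, SE 0.13, adjusted p = 9.87e-14). CTCF-deficient cells had 23.3% of the WT level without LPS (log2 fold change -2.09, SE 0.17, adjusted p = 2.23e-07) and 19.4% of the WTL level after LPS (-2.36, SE 0.08, adjusted p = 4.77e-11). The LPS response in KO was thus lower by 0.27 on the log2 scale (SE 0.22), which did not pass the test (adjusted p = 0.558). On the log2(TPM + 1) scale the same difference was -0.93 and passed (adjusted p = 0.000885), where the KO level lay below the pseudocount, at 0.79 to 0.97 TPM. KO libraries held 11 to 13 Ch25h counts each, so the KO baseline was counted with little depth. An antisense gene, Gm26902, overlaps an exon of Ch25h and moved with it, from 4.59 to 12.1 normalized counts in WT to between 42.5 and 70.4 in WTL, and from 1.79 to 4.63 in KO to between 18.3 and 24.6 in KOL. Whether counting used strand is not given in the sources used here, so reads of the pair cannot be assigned with certainty.

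The sequences before the start sites of the LPS-raised pair, Ch25h and Gpr183, are shown because both genes rose with LPS in both genotypes while CTCF deficiency lowered one and raised the other after LPS. Each line gives the 250 bases before the RefSeq start (GRCm38.p6, the same coordinates as mm10), 5′ to 3′ on the gene's minus strand, at chr19:34475149-34475398 for Ch25h and chr14:121965194-121965443 for Gpr183, with a cAMP response element in capitals.
Ch25h: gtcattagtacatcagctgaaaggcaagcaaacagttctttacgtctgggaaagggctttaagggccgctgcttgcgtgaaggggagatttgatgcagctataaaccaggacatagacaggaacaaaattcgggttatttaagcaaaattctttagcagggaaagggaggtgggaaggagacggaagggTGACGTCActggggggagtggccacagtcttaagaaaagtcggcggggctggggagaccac
Gpr183: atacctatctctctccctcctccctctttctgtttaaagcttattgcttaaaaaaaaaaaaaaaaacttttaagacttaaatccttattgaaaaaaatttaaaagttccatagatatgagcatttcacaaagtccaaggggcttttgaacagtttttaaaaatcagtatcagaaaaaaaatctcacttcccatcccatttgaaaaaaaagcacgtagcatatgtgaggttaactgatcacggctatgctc
The Ch25h window held the cAMP response element TGACGTCA at 61 to 54 bases before the start, a motif that 1.55% of all 32851 windows held. Windows were searched on both strands for that element, the AP-1 site TGANTCA (6.75% of windows), the interferon response pair, GAAA repeated after 2 bases of any kind (2.98%), the NF-κB site (7.25%) and the LXR repeat described with Abca1. The cAMP element was added to the search after the Ch25h window had been read, and it overlapped no other motif there. Windows were found for 8 of the 10 genes, and matches only for Ch25h and Abca1, so the Gpr183 window held none. A match is a description of the letters, and no match says only that these letters are not in this window.

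Cyp7b1, the oxysterol 7α-hydroxylase that completes the GPR183 ligand, was not detectable at this depth. It had 1 count in WTL replicate 1, 1 count in KOL replicate 3 and 0 in the other 10 libraries, and a count of 0 allows up to 3 counts per library. The gene spans 18071950 to 18243338 on the minus strand of chromosome 3. HSD3B7, which turns the GPR183 ligand into an inactive form, was expressed, and Hsd3b7 had the largest fall among the other oxysterol and bile acid enzymes. Its mean was 859.6 ± 105 normalized counts in WT, 517.6 ± 20.6 in WTL, 56.4 ± 6.30 in KO and 105.8 ± 23.8 in KOL (SD, n = 3). KO was lower than WT by 3.93 on the log2 scale (adjusted p = 5.66e-11) and KOL lower than WTL by 2.28 (adjusted p = 1.07e-08). Hsd3b7 fell with LPS in WT (log2 fold change -0.73, adjusted p = 6.82e-05) and rose in KO (0.92, adjusted p = 0.000311), and the responses differed by 1.65 (adjusted p = 0.000103). Ch25h, which makes the substrate of CYP7B1, and Hsd3b7, which inactivates the ligand, were thus both lower in CTCF-deficient cells in both conditions. Cyp7b1, the step between them, was not detectable.

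Of the 12 other oxysterol and bile acid enzymes listed, 6 were tested. In KO against WT 2 rose and 1 fell, where 22.2% of all genes tested rose and 22.4% fell, and in KOL against WTL 5 rose and Hsd3b7 fell, where 21.4% and 23.3% did. The 5 that rose had means under 100 normalized counts over the 12 libraries. On the log2(TPM + 1) scale 3 were higher and 1 lower in KO against WT, beside 13.4% and 23.1% of all genes. In KOL against WTL 3 were higher and 1 lower there, beside 14.9% and 19.1%. Cyp39a1, an oxysterol 7α-hydroxylase with a preference for 24-hydroxycholesterol, was outside the rule for naming genes, as its mean was under 100 normalized counts, and it was named after its values were seen, because it had the largest rise of the list in both comparisons: 4.67 ± 1.08 normalized counts in WT against 125 ± 1.97 in KO, and 5.72 ± 2.64 in WTL against 77.0 ± 18.9 in KOL. Its log2 fold change was 4.71 without LPS (adjusted p = 5.7e-09) and 3.71 with LPS (adjusted p = 1.73e-07).

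Cyp27a1 encodes the mitochondrial sterol 27-hydroxylase and lies on the plus strand of chromosome 1, from 74713574 to 74737892. Its normalized counts were 138, 174 and 152 in WT, 83.6, 110.5 and 118 in WTL, 161, 172 and 152 in KO, and 97.9, 109 and 108 in KOL. Both LPS groups lay below both groups without LPS, and neither genotype pair was separated. LPS lowered Cyp27a1 to 67.3% of the level in WT (log2 fold change -0.56, SE 0.13, adjusted p = 0.00237) and to 64.9% in KO (-0.62, SE 0.13, adjusted p = 0.000895). The KO and WT levels differed by 0.06 on the log2 scale (SE 0.13, adjusted p = 0.727), and KOL and WTL by 0.00 (SE 0.14, adjusted p = 0.999).

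Gpr183 encodes the chemotactic receptor for the dihydroxylated oxysterol and lies on the minus strand of chromosome 14, from 121952551 to 121965195. Its normalized counts were 143, 149 and 178 in WT and 526, 526.5 and 678 in WTL. They were 109.5, 99.9 and 107.5 in KO and 1151, 1267 and 1090 in KOL. No groups overlapped, and the order was KOL, WTL, WT and KO. LPS raised Gpr183 3.68-fold in WT (log2 fold change 1.88, SE 0.12, adjusted p = 4.05e-09) and 11.1-fold in KO (3.47, SE 0.12, adjusted p = 6.87e-12). The LPS fold in KO was 3.00 times that in WT (interaction 1.59 on the log2 scale, SE 0.17, adjusted p = 2.82e-05). CTCF-deficient cells had 67.3% of the WT level without LPS (log2 fold change -0.57, SE 0.13, adjusted p = 0.00288) and 203% of the WTL level with LPS (1.02, SE 0.10, adjusted p = 2.06e-06). After LPS, then, the genotype difference had opposite signs for the enzyme and the receptor: Ch25h was lower and Gpr183 higher in KOL than in WTL. Gpr183 lies within an intron of Ubac2 on the opposite strand, and Ubac2 ranged from 208 to 349 normalized counts over the 12 libraries, with 231 to 287 in KOL and 208 to 269 in WTL.

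Nr1h3 (LXRα, minus strand of chromosome 2, 91184061 to 91202834) had 554, 673 and 641 normalized counts in WT and 553, 588 and 533 in WTL. It had 373, 349.5 and 374 in KO and 466, 574.5 and 504 in KOL. The KO libraries were the lowest and stood apart from all other groups, which overlapped among themselves. Nr1h3 in KO was at 58.7% of WT (log2 fold change -0.77, SE 0.09, adjusted p = 9.32e-06), and in KOL it was at 92.3% of WTL (-0.12, SE 0.09, adjusted p = 0.328). LPS raised Nr1h3 in KO (0.49, SE 0.09, adjusted p = 0.000326) on TMM-scaled counts, and its change in WT was -0.16 (SE 0.09, adjusted p = 0.143). On the log2(TPM + 1) scale the genotype with a call was the other one, with -0.70 in WT (adjusted p = 9.74e-05) and -0.01 in KO (adjusted p = 0.908). The difference between these responses was 0.65 (SE 0.13, adjusted p = 0.00352) and 0.68 on the log2(TPM + 1) scale.

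Nr1h2 (LXRβ, minus strand of chromosome 7, 44549616 to 44553951) had group means of 944 ± 50.9 normalized counts in WT, 1037 ± 111 in WTL, 972 ± 24.4 in KO and 1037 ± 136 in KOL, and all groups overlapped. None of its comparisons passed the test, with adjusted p from 0.25 to 0.991. Its LPS differences were 0.14 in WT and 0.09 in KO on TMM-scaled counts and -0.40 and -0.54 on the log2(TPM + 1) scale, where both passed (adjusted p = 0.00869 and 0.00156), so no direction is given for them. Of the 13 RXR partners and coregulators, 12 were tested. LPS lowered 6 and raised 1 in WT, where 30.2% of all genes fell and 30.0% rose, and lowered 8 and raised 3 in KO, where 33.9% and 33.6% did. The falls were led by Rxra, the main RXR of myeloid cells (log2 fold change -1.32 in WT, adjusted p = 1.08e-08, and -1.58 in KO, adjusted p = 1.53e-09). Without LPS, CTCF deficiency raised 2 of the 12 and lowered 0 on TMM-scaled counts, where 22.2% of all genes rose and 22.4% fell. On the log2(TPM + 1) scale 0 passed in either direction, where 13.4% of all genes were higher and 23.1% lower. With LPS 11 were lower and 1 higher on that scale in WT, where 55.8% of all genes were lower and 12.6% higher, and 10 were lower and 1 higher in KO, where 51.6% and 16.6% were.

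Abca1, which hands cholesterol to lipid-poor apolipoproteins, lies on the minus strand of chromosome 4 from 53030787 to 53159895. Its normalized counts were 1193, 1216 and 1331 in WT, 1110, 862 and 737 in WTL, 1385, 1440 and 1346 in KO, and 1107, 1411 and 1188 in KOL. WTL spread most, and its highest library reached the lowest of KOL. LPS lowered Abca1 in WT (log2 fold change -0.47, SE 0.13, adjusted p = 0.00513), while the change in KO was -0.17 (SE 0.12, adjusted p = 0.237), and the responses did not differ by test (0.30, SE 0.18, adjusted p = 0.282). On the log2(TPM + 1) scale the LPS difference of Abca1 passed in both genotypes, with -0.88 in WT and -0.65 in KO (adjusted p = 0.00224 in KO). KOL was at 137% of WTL (0.45, SE 0.13, adjusted p = 0.00927), a call lost on the log2(TPM + 1) scale (adjusted p = 0.06). KO and WT differed by 0.16 (SE 0.12, adjusted p = 0.33).

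The promoter of Abca1 is shown because LXR is known to act on this gene through a direct repeat. The line gives the 250 bases before the RefSeq start at chr4:53159896-53160145, 5′ to 3′ on the minus strand, with the repeat in capitals.
Abca1: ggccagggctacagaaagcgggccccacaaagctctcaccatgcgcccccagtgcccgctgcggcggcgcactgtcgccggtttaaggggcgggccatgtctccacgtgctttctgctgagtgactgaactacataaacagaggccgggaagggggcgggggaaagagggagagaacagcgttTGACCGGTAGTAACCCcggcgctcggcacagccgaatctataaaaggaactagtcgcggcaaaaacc
On the opposite strand the capitals read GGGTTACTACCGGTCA, that is the hexamers GGGTTA and CGGTCA with 4 bases between them, at 67 to 52 bases before the start. The search was for the hexamer AGGTCA repeated after 4 bases of any kind, with up to 3 mismatches over both copies, and this match had 3. Of all 32851 windows 18.5% held such a match, and of the 8 genes with a window Abca1 alone did.

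Abcg1, which passes cholesterol to HDL, fell with LPS in both genotypes. It lies on the plus strand of chromosome 17 from 31057675 to 31117988. The libraries held 3459, 3755 and 3554 in WT, 1902, 2151 and 2153 in WTL, 3562, 3422 and 3519 in KO, and 1488, 1272 and 1391 normalized counts in KOL. WT and KO overlapped, WTL lay below both and KOL below WTL. LPS lowered Abcg1 to 57.6% in WT (log2 fold change -0.79, SE 0.08, adjusted p = 4.66e-07) and to 39.5% in KO (-1.34, SE 0.08, adjusted p = 1.54e-09), and the fall was larger in KO by 0.54 on the log2 scale (interaction -0.54, SE 0.11, adjusted p = 0.00307). KOL was at 66.9% of WTL (-0.58, SE 0.08, adjusted p = 2.49e-05), and KO at 97.5% of WT (-0.04, SE 0.07, adjusted p = 0.73). After LPS the transporters thus stood on opposite sides of WTL in KOL on TMM-scaled counts, Abca1 higher and Abcg1 lower. The Abca1 libraries of these groups overlapped, and its call was lost on the log2(TPM + 1) scale (adjusted p = 0.06), while that of Abcg1 was kept.

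Mylip encodes the ubiquitin ligase IDOL, which LXR induces and which limits lipoprotein uptake, and lies on the plus strand of chromosome 13 from 45389742 to 45412022. Normalized counts of Mylip were 417, 442 and 453 in WT, 357, 341 and 327.5 in WTL, 765, 738 and 742 in KO, and 469, 549.9 and 442 in KOL. KO was highest, KOL and WT overlapped, and WTL was lowest. Mylip in KO was at 171% of WT (log2 fold change 0.78, SE 0.08, adjusted p = 2.03e-06) and in KOL at 142% of WTL (0.51, SE 0.08, adjusted p = 0.000204). LPS lowered it to 78.2% in WT (-0.36, SE 0.08, adjusted p = 0.00207) and to 65% in KO (-0.62, SE 0.08, adjusted p = 8.67e-06), and the responses differed by -0.27 (SE 0.12, adjusted p = 0.137). Lrp8, a lipoprotein receptor that the ligase marks for degradation, was lower in KO than in WT (log2 fold change -0.56, adjusted p = 0.00101) and higher in KOL than in WTL (0.31, adjusted p = 0.0297), a call lost on the log2(TPM + 1) scale (adjusted p = 0.506). LPS raised Lrp8 on TMM-scaled counts by 0.55 in WT and 1.42 in KO, while on the log2(TPM + 1) scale the value in WT was 0.07 and was not called.

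Apoe encodes the apolipoprotein that takes up exported cholesterol and lies on the minus strand of chromosome 7 from 19696109 to 19699188. WT libraries had 90.0, 113 and 87.3 normalized counts, WTL 91.7, 87.7 and 106, KO 129, 158 and 119.5, and KOL 174, 186 and 172. WT and WTL overlapped, KO lay above both and KOL above KO. KOL was at 186% of WTL (log2 fold change 0.89, SE 0.14, adjusted p = 0.000139), and KO at 140% of WT (0.48, SE 0.14, adjusted p = 0.0108). The call in KO against WT was lost without WT replicate 1, WT replicate 3 or KO replicate 2 (adjusted p = 0.0625, 0.0704 and 0.0665) and on the log2(TPM + 1) scale (adjusted p = 0.068). With LPS Apoe rose in KO on TMM-scaled counts (0.39, SE 0.13, adjusted p = 0.0191), a direction that turned to -0.13 on the log2(TPM + 1) scale and a call that was lost without KO replicate 1 or KO replicate 3 (adjusted p = 0.0679 and 0.0916). Its change in WT was -0.02 (SE 0.15, adjusted p = 0.901), and the difference between the responses was 0.41 (SE 0.20, adjusted p = 0.179). The macrophage markers C1qa, a complement subunit, and Csf1r, the M-CSF receptor, were also higher in KO than in WT. Their log2 fold changes were 1.27 and 0.73 (adjusted p = 3.07e-06 and 0.000229). Siglec1, Fcgr1 and Adgre1 of the same list were lower, with -3.68, -1.93 and -0.81. Of the 11 tested markers of that list 4 rose and 4 fell, beside 22.2% and 22.4% of all genes. With LPS, C1qa was higher in KOL than in WTL (1.82), while mean Csf1r was 5744 normalized counts in KOL and 6272 in WTL. The part of these marker shifts in the Apoe values was not tested.

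The 14 other LXR target genes gave no common direction between the genotypes. Of 11 tested, 2 rose and 5 fell in KO against WT, beside 22.2% and 22.4% of all genes, and 4 rose and 5 fell in KOL against WTL, beside 21.4% and 23.3%. LPS lowered 4 and raised 0 in WT, beside 30.2% and 30.0%, and lowered 5 and raised 4 in KO, beside 33.9% and 33.6%. On the log2(TPM + 1) scale, of 10 tested, 9 were lower and 0 higher in WT, beside 55.8% and 12.6% of all genes. In KO 7 were lower and 2 higher there, beside 51.6% and 16.6%. Scd2 fell with LPS by 2.15 in WT and 2.52 in KO on TMM-scaled counts. Smpdl3a, a phosphodiesterase gene, rose in CTCF-deficient cells without LPS (0.55, adjusted p = 4.55e-05) and with LPS (0.66, adjusted p = 1.11e-05), the direction of Mylip and Apoe. Lpl, lipoprotein lipase, fell by 1.44 on the log2 scale without LPS (adjusted p = 1.33e-08) and by 1.22 with LPS (adjusted p = 7.44e-08), and Mertk, a receptor for dying cells, fell by 1.16 (adjusted p = 1.45e-05) and by 1.13 (adjusted p = 2.82e-05). Pltp, which moves phospholipid between lipoproteins, rose in KO against WT (0.54, adjusted p = 0.000262) and fell in KOL against WTL (-0.31, adjusted p = 0.0208).

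**Figure D3:**
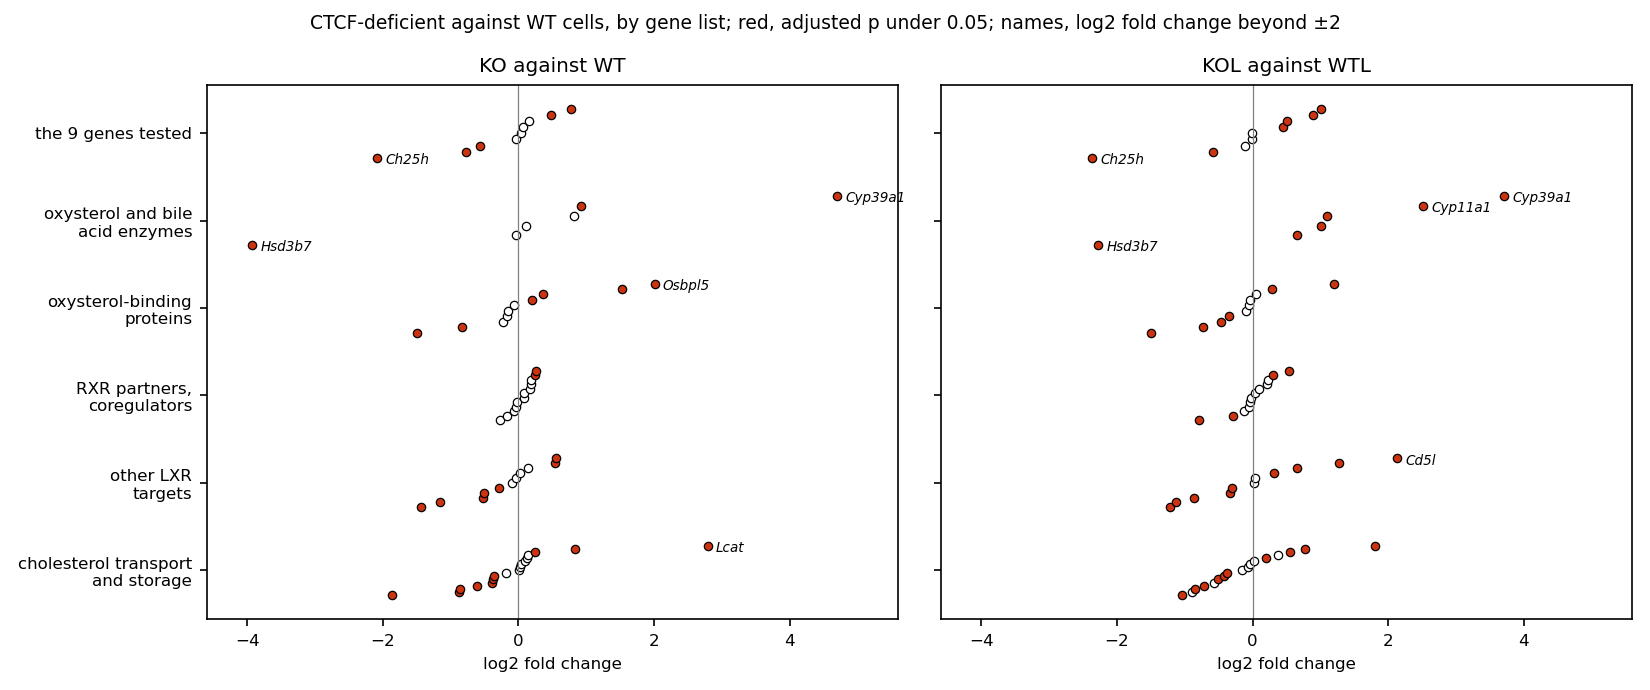
Log2 fold change (horizontal axis) of each tested gene of the set and of 5 related gene lists (rows), in KO against WT and in KOL against WTL. Filled points passed an adjusted p under 0.05; Hsd3b7 is at -3.93 and -2.28, Ch25h at -2.09 and -2.36, and Cyp39a1 at 4.71 and 3.71.

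Per unit of transcript length, in TPM, the levels of the genes could be compared with each other. In WT the highest were Nr1h2 at 70.2 ± 3.68 TPM and Abcg1 at 65.9 ± 3.42 TPM (SD, n = 3), and Gpr183 at 6.01 ± 0.61 TPM and Ch25h at 4.05 ± 0.14 TPM were the lowest of the 9 tested. In WTL Ch25h was first, at 172 ± 7.52 TPM, followed by Nr1h2 at 52.8 ± 1.76 TPM. In KO Ch25h was at 0.88 ± 0.09 TPM and Gpr183 at 3.97 ± 0.19 TPM. In KOL Ch25h at 32.9 ± 3.05 TPM and Gpr183 at 31.0 ± 2.20 TPM lay within each other's spread, where in WTL Ch25h was far above Gpr183, at 15.4 ± 2.83 TPM.

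The LPS comparisons depended on the scale. On log2(TPM + 1) the median of all genes moved by -0.45 in WTL against WT and by -0.40 in KOL against KO, and by -0.11 in KO against WT, while on TMM-scaled counts it lay between -0.03 and -0.01 in every comparison. LPS differences of the genes on the TPM scale were lower: -1.21 in WT and -1.75 in KO for Abcg1, -0.81 and -1.01 for Mylip, and -0.57 and -0.13 for Apoe. The rises of Ch25h (5.10 and 4.17) and Gpr183 (1.22 and 2.69) and the falls of Abcg1, Mylip and Cyp27a1 kept their direction on both scales. On the TPM scale 2 of the 9 genes were called higher and 7 lower in WTL against WT, where 12.6% and 55.8% of 13435 genes were, and 2 higher and 5 lower in KOL against KO, where 16.6% and 51.6% were. In KO against WT 1 was higher and 3 lower there, beside 13.4% and 23.1% of all genes, and in KOL against WTL 3 were higher and 2 lower, beside 14.9% and 19.1%. The calls of Nr1h2, Nr1h3 and Apoe in WT and of Nr1h2 and Abca1 in KO were made on the TPM scale and not on TMM-scaled counts, and those of Nr1h3 and Apoe in KO the other way round.

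**Figure D4:**
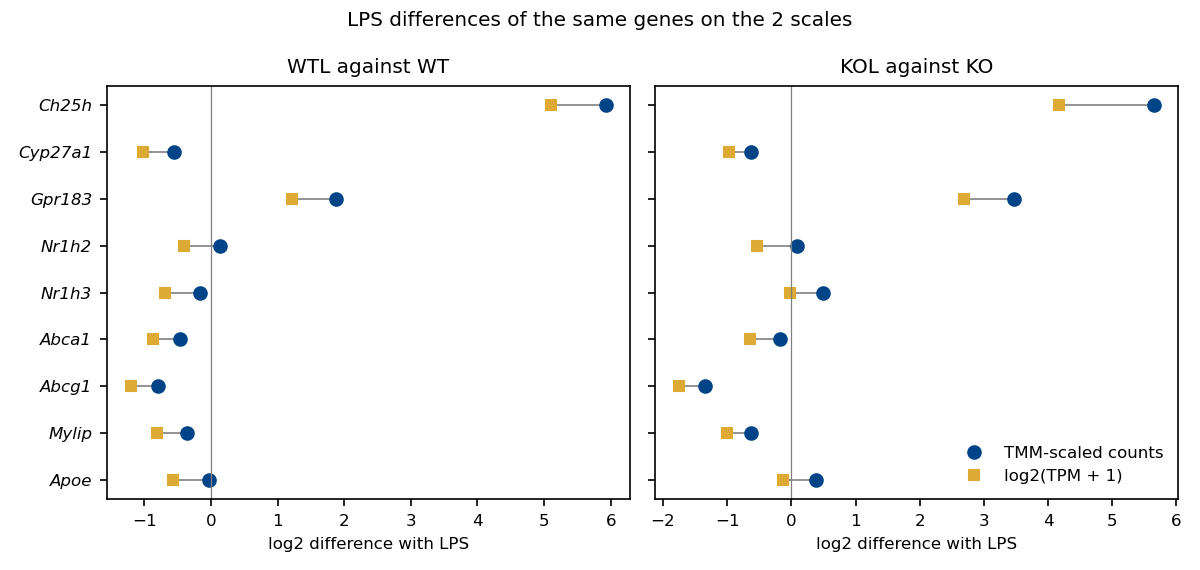
LPS differences (horizontal axes, log2) of the 9 tested genes in WT (left) and KO (right) on TMM-scaled counts (circles) and on log2(TPM + 1) (squares). The squares lie to the left of the circles for all 9 genes; Nr1h2 crosses 0 in both genotypes, and Nr1h3 and Apoe cross it in KO.

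The genes whose pattern over the 4 group means was most like that of each gene were searched among 9329 candidates with at least 100 normalized counts on average, by the root mean square difference of centred log2 group means. For Ch25h these were Col5a3, a collagen chain gene (difference 0.24), and Cxcl9, an interferon-induced chemokine gene (0.39). Col5a3 had 17.2, 1113, 2.79 and 280.5 normalized counts in WT, WTL, KO and KOL, and Cxcl9 had 26.8, 947, 7.12 and 231. For Gpr183 they were Upp1, which encodes uridine phosphorylase (0.24), and Irf4, a transcription factor of dendritic cells (0.26), with Irf4 at 1196, 4989, 1168 and 7894 normalized counts. For the other 7 genes the closest patterns differed by 0.04 or less. These were Cdc14b and Senp7 for Cyp27a1, Ncbp3 and Fam8a1 for Nr1h2, Trim24 and Dnpep for Nr1h3, and Knop1 and Eif2b4 for Abca1. They were Runx1 and Mdc1 for Abcg1, Lix1l and P2rx4 for Mylip, and Rnf8 and Mgat4b for Apoe.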

How the data were processed

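The authors trimmed the paired reads, aligned them to mm10 with STAR (2.5.1 per the labels) and quantified genes with RSEM, and deposited expected counts and TPM per gene and library. The labels name rRNA depletion and the methods a poly(A) kit, and the strand setting is not given in the sources used here. Expected counts were rounded and fitted with edgeR 4.0.16 (R 4.3.3): TMM scaling, filterByExpr (14008 of 55335 genes kept), one quasi-likelihood fit of 12 libraries in 4 groups, and Benjamini-Hochberg adjustment over all genes tested. To obtain normalized counts, each rounded value was scaled from its own TMM-adjusted total to the average such total of the 12 libraries. Totals of 12769773 to 16586334 counts set the precision, the biological coefficient of variation was 9.98%, and limits for a count of 0 cover counting error only. The groups are biological triplicates per the methods. Replicate numbers did not pair the libraries (correlation of same-numbered deviations -0.286 to 0.112, over 0.1 in 1 of 18 pairs). Scripts were tested on simulated data.

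The genes and lists were chosen with earlier results of these data known. Of other lists, up to 3 genes per direction and comparison are named, those called with the largest log2 fold change among genes whose mean reached 100 normalized counts, and for each tested gene the 2 genes closest in pattern. Alternatives were DESeq2 1.42.0 or only its size factors, removing the filter or demanding 10 counts in each library, a replicate block, limma 3.58.1 on log2 of TPM plus 1 or plus 0.1, edgeR on the 6 libraries compared, fold cutoffs, and leaving out each library. Promoter windows are from RefSeq (GRCm38.p6), positions from GENCODE M21. DESeq2 was the tool of the authors.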

Additional observations from a re-analysis of the deposited data

Results flagged for a closer look

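The LPS response differed between the genotypes by the interaction test for 3 of the 9 genes tested. The difference, the response in CTCF-deficient cells minus that in WT, was 1.59 on the log2 scale for Gpr183, which rose in both genotypes. It was 0.65 for Nr1h3, whose change with LPS passed the test in KO and not in WT on TMM-scaled counts, and in WT and not in KO on the log2(TPM + 1) scale, and -0.54 for Abcg1, which fell in both genotypes. Each of the 3 was also called by DESeq2 and with any single library left out.

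Among genes of the related lists with a mean of at least 100 normalized counts the same test flagged Hsd3b7 (1.65), which fell with LPS in WT and rose in KO. It flagged the LXR target genes Arl4c (0.84), Pltp (-0.85) and Scd2 (-0.36), of which Arl4c, a small GTPase gene, rose in KO. Among cholesterol transport and storage genes it flagged Lipa (0.74), which encodes the lysosomal acid lipase, Scarb1 (-0.73), the HDL receptor gene, and Npc2 (-0.28), which encodes a lysosomal cholesterol carrier. It also flagged the coactivator genes Ncoa1 (-0.63) and Ncoa2 (0.36), Osbpl9 (0.35), which encodes an oxysterol-binding protein, and Lrp8 (0.87). Below that mean, and named after their values were seen, were Fdxr (0.98, adjusted p = 0.0103), the gene of a reductase that feeds electrons to mitochondrial P450 enzymes, and the LXR target genes Apoc2 (1.26, adjusted p = 0.0118) and Cd5l (2.23, adjusted p = 0.0182). On the log2(TPM + 1) scale the interactions of Scd2, Npc2, Ncoa1, Ncoa2, Lrp8 and Fdxr did not pass (adjusted p = 0.279, 0.208, 0.188, 0.158, 0.079 and 0.051), and Cd5l was too low to be tested there. With 3 libraries per group, no library was tested as an outlier.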

How the results depend on the processing

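Of 675 recomputed log2 fold changes of single genes, 618 kept direction and call, 11 gained a call, 9 lost one and 37 changed sign, and of 79 recomputed counts of called genes 76 stayed within 1.5 times. With fold cutoffs added (2 for LPS, 1.3 for KO against WT, 1.5 for KOL against WTL), 2 genes of the set were called in WTL against WT and 3 in KOL against KO. In KO against WT 5 were called, as without the cutoff, and in KOL against WTL 3. The calls lost were of changes smaller than the cutoffs. The share of all genes passing these cutoffs was not computed, so the counts do not set these genes apart. On TPM plus 1, all 9 were called in WTL against WT. With one library left out, 6 to 7 genes were called in WTL against WT, 6 to 7 in KOL against KO, 4 to 5 in KO against WT, 6 in KOL against WTL and 3 to 4 for the interaction. With the replicate block, 44 of 45 values kept direction and call, the exception being Cyp27a1 in KOL against WTL (0.0094), so it changed no call.

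On log2 of TPM plus 1 and plus 0.1, Nr1h2 changed sign in WTL against WT (-0.4031, -0.4091) and in KOL against KO (-0.5373, -0.5457), as did Nr1h3 (-0.0138, -0.0145) and Apoe (-0.1324, -0.1381) in KOL against KO, and Cyp27a1 for the interaction (0.045, 0.0568) and in KOL against WTL (0.0576, 0.0698). The median of all genes moved down with LPS on that scale. Values near 0 changed sign elsewhere: in KOL against WTL, Cyp27a1 was 0.0013 with DESeq2 size factors, 0.0104 and 0.0135 with no filter and with the stricter one, and 0.035 on 6 libraries, and Nr1h2 was 0.0097, 0.0133 and 0.0301 with no filter, the stricter one and 6 libraries. With one library left out, ranges spanning 0 were -0.1694 to 0.037 for Apoe in WTL against WT, -0.0509 to 0.1189 for Cyp27a1 and -0.0388 to 0.0585 for Nr1h2 in KO against WT, -0.1249 to 0.0996 for Cyp27a1 and -0.0838 to 0.1063 for Nr1h2 in KOL against WTL, and -0.1851 to 0.0853 for Cyp27a1 and -0.1254 to 0.0711 for Nr1h2 for the interaction. The 11 calls gained included 6 on log2 of TPM plus 1 and plus 0.1, where Nr1h3 (-0.6952, -0.7163) and Apoe (-0.5671, -0.6083) were lower in WTL against WT and Abca1 (-0.6514, -0.7077) in KOL against KO, and the Ch25h interaction on TPM plus 1 (-0.9316). The others were Abca1 in KO against WT on 6 libraries (adjusted p = 0.00791), Nr1h3 in WTL against WT without WT replicate 1 (adjusted p = 0.01), and the interactions of Abca1 without WTL replicate 1 (0.47, adjusted p = 0.0321) and Mylip without KOL replicate 2 (-0.36, adjusted p = 0.0128). The cause was not tested.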

Other observations

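Oxysterol-binding proteins, which carry or sense sterols at membrane contacts, were tested for 10 of 12 genes. In CTCF-deficient cells without LPS 4 rose and 2 fell, beside 22.2% and 22.4% of all genes, and with LPS 2 rose and 4 fell, beside 21.4% and 23.3%. On the log2(TPM + 1) scale, where 9 were tested, 2 were higher and 2 lower without LPS, beside 13.4% and 23.1% of all genes. With LPS 1 was higher and 4 lower on that scale, beside 14.9% and 19.1%. Osbpl3 fell in both conditions (adjusted p = 7e-09 in KO against WT and 6.53e-09 in KOL against WTL), from 670 ± 30.3 to 237 ± 4.32 normalized counts without LPS and from 994 ± 89.7 to 350.5 ± 34.7 with LPS (SD, n = 3). With LPS it rose by 0.57 in WT (adjusted p = 3.46e-05) and 0.56 in KO (adjusted p = 8.62e-05) on TMM-scaled counts, calls that were lost on the log2(TPM + 1) scale (0.08 and 0.21, adjusted p = 0.543 and 0.1). Osbpl7 also fell in both conditions, by 0.84 (adjusted p = 5.52e-05) and 0.74 (adjusted p = 0.000418). The risers named by the same rule had smaller changes. They were Osbpl1a (0.37, adjusted p = 0.0385) and Osbp (0.20, adjusted p = 0.0247) in KO against WT, and Osbpl9 (0.28, adjusted p = 0.00372) in KOL against WTL. The calls of Osbp and Osbpl9 were lost on the log2(TPM + 1) scale (adjusted p = 0.384 and 0.0778).

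Of 19 other cholesterol transport and storage genes, 17 were tested, and LPS raised 6 and lowered 8 in WT, beside 30.0% and 30.2% of all genes, and raised 5 and lowered 7 in KO, beside 33.6% and 33.9%. Among those named by the rule, LPS lowered Soat1, which makes cholesterol esters (log2 fold change -1.41 in WT and -1.46 in KO, adjusted p = 6.4e-10 and 4.07e-10), and Nceh1, which splits them (-1.71 and -1.95, adjusted p = 1.86e-10 and 6.23e-11). Gramd1b, which encodes a carrier of cholesterol from the plasma membrane to the endoplasmic reticulum, rose (1.42 and 1.71, adjusted p = 7.49e-08 and 9.31e-09). Npc2 was higher in CTCF-deficient cells without LPS (0.84, adjusted p = 4.43e-08) and with LPS (0.56, adjusted p = 2.86e-06), and Stard4, which encodes a sterol carrier, was lower (-0.87, adjusted p = 1.66e-07, and -1.04, adjusted p = 3.86e-08).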
